A study of Mus musculus with 4 samples.

Results

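The microvilli of the intestinal brush border, actin-filled fingers on the apical face of each enterocyte, are built from a small set of structural proteins. Transcripts of 9 genes of this set were read in the small intestinal muscularis of mice lacking Dicer in smooth muscle (smDicer KO) and of WT mice. The 9 genes were Vil1, Espn, Eps8, Myo1a, Myo7b, Myo15b, Cdh17, Pcdh24 and Ush1c, taken by name, and a probe set was assigned to a gene where its deposited symbol was exactly that name. This gave 10 probe sets of the 45101 on the arrays, and 9 of the 20461 genes that had a probe set of their own. Myo15b had 2 probe sets and was represented by the one with the higher mean over the 4 arrays.

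In a microvillus, a core of parallel actin filaments is held together by bundling proteins such as villin and espin and is tied to the membrane by myosin I. The tips of neighbouring microvilli are joined by protocadherins, which a complex of scaffold proteins and the motor Myo7b anchors to the actin core. Enterocytes of the villi are known for these structures, whereas smooth muscle cells carry no brush border. Cdh17, the liver-intestine cadherin, acts at the lateral contacts of enterocytes and is thus an enterocyte adhesion gene more than a part of the microvillus itself.

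RNA of 2 smDicer KO and 2 WT mice, about 3 weeks of age, was hybridized to Affymetrix mouse expression arrays, 1 for each mouse. The smDicer KO mice were smDicer-/-;Cre-GFP/+, in which Cre and eGFP are driven by the Myh11 promoter and floxed Dicer is removed in smooth muscle cells. They are listed as Dicer lox/Δ, and as the deleted allele is also listed in mice without Cre, the other cells of the tissue, such as epithelium and nerves, may carry it too. The controls are labelled wild type with no allele named, and the methods give WT mice as smMHC Cre-GFP/+ and as siblings of the transgenic mice. The labelled tissue was jejunum, and by the methods its muscle layers were freed of mucosa and submucosa. The smDicer KO mice on the arrays were female, and the sex of the WT mice was not given. The methods call the 2 arrays of a genotype biological replicates.

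Values are log2 RMA values, and those under about 6 lie near background. The medians of the arrays lay between 5.17 and 5.22. Over probe sets, which are not independent replicates, smDicer KO 2 stood apart, with a Pearson's r of 0.973 to smDicer KO 1 and of 0.953 and 0.960 to WT 1 and WT 2, against 0.992 between the WT arrays. The r of smDicer KO 1 was 0.979 to each WT array, so it was closer to them than to smDicer KO 2. Dicer1 had 7.52 and 7.36 on the smDicer KO arrays against 7.82 and 8.08 on the WT arrays, a log2 difference of -0.51 (SE 0.16, limma adjusted p = 0.271), though its probe sets need not cover the deleted exons. Smooth muscle was borne out by its defining markers, since none of the 10 smooth muscle genes was under 6 on all arrays. Acta2 and Tagln, both contractile genes, lay between 14.25 and 14.46 and between 13.63 and 14.19 over the 4 arrays. These markers speak neither to the gut region nor to the removal of the mucosa. Genes of the mucosa and of the pancreas were bright on some arrays, as given below. Differences are smDicer KO minus WT, tested with limma, and adjusted p-values are Benjamini-Hochberg values across the whole array. With 2 arrays in each group, an exact permutation test of a single gene cannot give a 2-sided p below 0.333.

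The 9 microvillus genes were measured higher in smDicer KO than in WT without exception, where 9071 of all 20461 genes were higher. On both smDicer KO arrays, each of the 9 genes exceeded its values on both WT arrays, where 21.5% of all genes did so. The median log2 difference over the 9 genes was 3.24, beside -0.04 over all genes, and it was 2.08 without smDicer KO 2. By limma, 8 of the 9 had an unadjusted p under 0.05 and were higher, where 7.20% of all genes were, and 0 of the 9 were lower, where 10.5% of all genes were. The 9 genes were chosen with earlier results of these data known, so the counts beside these shares are a description. None of the 9 passed an adjusted p of 0.05, and neither did any other gene on the arrays (0%), so no single gene is called changed. The unadjusted count was 8 without smDicer KO 2, 4 without WT 2, 0 without WT 1 and 0 in an unmoderated linear model. In RNA from whole tissue, fewer or more cells of a type and less or more RNA per cell cannot be told apart.

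**Figure D1:**
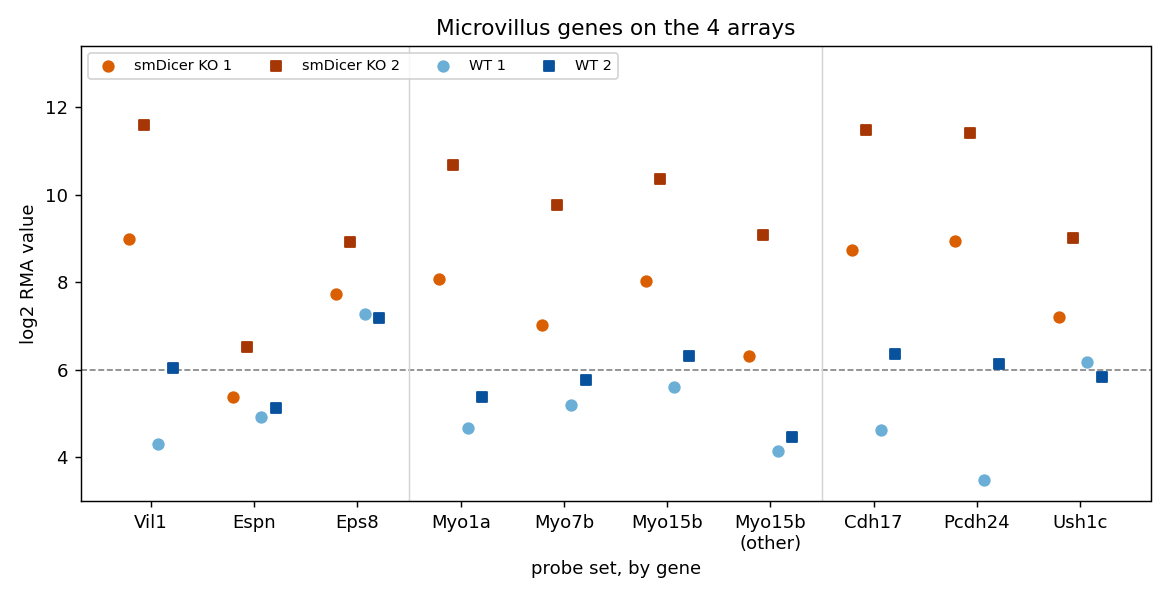
Log2 RMA value (y axis) of the 10 probe sets of the 9 microvillus genes (x axis), with 1 point for each array; the dashed line marks 6, near background, and grey lines separate actin regulators, myosins, and cadherins with their scaffold. Both smDicer KO points lie above both WT points for every probe set, and smDicer KO 2 is the highest in each.

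Among the actin bundlers and regulators, Vil1 showed the widest separation of the genotypes. Vil1 encodes villin, which bundles and, at high calcium, severs the actin filaments of the core. It had 9.0 and 11.60 on the smDicer KO arrays, against 4.31 and 6.05 on the WT arrays. WT 1 was near background, WT 2 at its edge, and the lower smDicer KO array stood 2.95 log2 units above the higher WT array. The means were 10.30 ± 1.84 in smDicer KO and 5.18 ± 1.23 in WT (SD, n = 2 each). The log2 difference of 5.12, a 34.8-fold difference (SE 1.05, limma adjusted p = 0.233), ranked 15 among the 20461 genes.

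Espn encodes espin, a small bundler that lengthens the actin core. It gave 5.39 and 6.52 in smDicer KO, against 4.93 and 5.12 in WT. Only smDicer KO 2 lay above the near-background range, and the gap between smDicer KO 1 and WT 2 was 0.27. With means of 5.95 ± 0.80 in smDicer KO and 5.03 ± 0.13 in WT (SD, n = 2 each), its difference of 0.93 (SE 0.40, limma adjusted p = 0.357) was the smallest of the 9 and the only one with an unadjusted p over 0.05.

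Eps8, a capping and bundling protein found at microvillus tips, was the only gene of the set above 6 on all 4 arrays. The smDicer KO arrays read 7.74 and 8.93, against 7.27 and 7.19 on the WT arrays. The WT arrays were close together, and smDicer KO 1 lay 0.47 above the higher of them. The means were 8.34 ± 0.84 in smDicer KO and 7.23 ± 0.06 in WT (SD, n = 2 each), and the difference was 1.11 (SE 0.42, limma adjusted p = 0.316). A further 2 probe sets carry Eps8 together with a second symbol and were not counted. Their differences were 1.07 and 0.87. Neither reached an unadjusted p of 0.05 by limma (0.092 and 0.139), whereas the counted probe set was just under it (0.0496).

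The 250 bases upstream of the Vil1 start site are shown because, of the 6 genes of the set with a sequence in the RefSeq table used, Vil1 was the only one to hold a CArG box, the motif of the serum response factor that drives smooth muscle genes. The sequence was taken from RefSeq (GRCm38.p6, chr1:74409134-74409383, plus strand), reads 5′ to 3′ towards the start site, and has the CArG box, which begins at position -73 from the start, in capitals.
Vil1: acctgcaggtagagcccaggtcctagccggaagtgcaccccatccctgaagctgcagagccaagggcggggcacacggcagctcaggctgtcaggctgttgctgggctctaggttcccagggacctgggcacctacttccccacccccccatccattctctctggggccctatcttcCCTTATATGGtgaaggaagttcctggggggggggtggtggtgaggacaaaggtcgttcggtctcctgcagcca
Such a match is only a string of letters, found on either strand in 1.47% of 32851 mouse upstream sequences of the same length. Espn had 3 start sites in RefSeq, of which 1 held TTTAT, the core letters bound by CDX factors of the intestine, a string present in 37.3% of the same sequences.

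The myosins followed in an order of their own. Myo1a encodes brush border myosin I, the bridge between the actin core and the membrane along the shaft. It had 8.08 and 10.67 on the smDicer KO arrays, against 4.66 and 5.39 on the WT arrays. Both WT arrays were near background and both smDicer KO arrays were well above it, with no overlap. Means of 9.37 ± 1.84 in smDicer KO and 5.03 ± 0.51 in WT (SD, n = 2 each) gave a difference of 4.35, or 20.3-fold (SE 0.91, limma adjusted p = 0.233).

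Myo7b, the motor that carries the tip complex of the protocadherins, was lower in the order. Its values were 7.03 and 9.77 in smDicer KO, against 5.21 and 5.76 in WT. The WT arrays were near background, and smDicer KO 1 was above the higher of them by 1.27. The means were 8.40 ± 1.94 in smDicer KO and 5.48 ± 0.39 in WT (SD, n = 2 each), a difference of 2.92, or 7.55-fold (SE 0.94, limma adjusted p = 0.279).

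Myo15b encodes an unconventional myosin related to Myo15 of the inner ear. Its brighter probe set had 8.04 and 10.37 in smDicer KO, against 5.61 and 6.31 in WT, with the genotypes apart and WT 1 near background. The difference was 3.24 (SE 0.82, limma adjusted p = 0.244), from means of 9.20 ± 1.65 in smDicer KO and 5.96 ± 0.49 in WT (SD, n = 2 each). The second probe set, with 6.32 and 9.07 in smDicer KO and 4.16 and 4.47 in WT, gave 3.38 (SE 0.93, limma adjusted p = 0.254), so the probe sets differed by less than either standard error.

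Cadherins and their scaffold completed the set. Pcdh24, now named Cdhr2, encodes a protocadherin whose contacts join the tips of neighbouring microvilli. It had 8.95 and 11.40 on the smDicer KO arrays, against 3.49 and 6.13 on the WT arrays. WT 1 was near background, and WT 2 was 2.64 above it, as wide a gap as the 2.45 between the smDicer KO arrays. The means were 10.18 ± 1.73 in smDicer KO and 4.81 ± 1.87 in WT (SD, n = 2 each). Its log2 difference of 5.36, or 41.2-fold (SE 1.21, limma adjusted p = 0.234), was the largest of the set and ranked 9 among the 20461 genes.

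The upstream sequence of Pcdh24 is shown because, among the same 6 genes, it alone held the letters searched for HNF1 and HNF4, factors that drive genes of the intestinal and liver epithelium. It comes from RefSeq (GRCm38.p6, chr13:54701213-54701462, plus strand), 5′ to 3′, with GTTAAT of HNF1, from position -54, and CAAAGT of HNF4, from position -20, in capitals.
Pcdh24: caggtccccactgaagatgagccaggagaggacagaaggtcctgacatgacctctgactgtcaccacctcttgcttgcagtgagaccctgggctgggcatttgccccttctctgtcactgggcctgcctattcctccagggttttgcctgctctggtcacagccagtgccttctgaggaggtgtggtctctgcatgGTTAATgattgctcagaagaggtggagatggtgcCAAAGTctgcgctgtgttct
Over the 32851 upstream sequences and both strands, GTTAAT occurred in 6.43% and CAAAGT in 12.6%. AGATAA of GATA factors, present in 9.99%, was found in 0 of the 6 genes. Cdh17, Eps8 and Myo7b were not searched.

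Cdh17 had 8.73 and 11.47 on the smDicer KO arrays, against 4.62 and 6.37 on the WT arrays. The genotypes were apart by 2.36, and WT 2 was the higher WT array here as for Vil1 and Pcdh24. Means of 10.10 ± 1.94 in smDicer KO and 5.49 ± 1.24 in WT (SD, n = 2 each) gave a difference of 4.61, or 24.4-fold (SE 1.09, limma adjusted p = 0.239). Ush1c encodes harmonin, the scaffold that binds the tails of the protocadherins. It had 7.22 and 9.02 in smDicer KO, against 6.17 and 5.84 in WT, both WT arrays at the edge of background. Here WT 1 was the higher WT array, and smDicer KO 1 stood 1.05 above it. The means were 8.12 ± 1.27 in smDicer KO and 6.0 ± 0.23 in WT (SD, n = 2 each), a difference of 2.11, or 4.32-fold (SE 0.62, limma adjusted p = 0.262).

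In WT, 7 of the 9 genes had a mean under 6, all but Eps8 and Ush1c, whereas in smDicer KO this held for 1, Espn. Of all 20461 genes, 9846 had a mean under 6 in WT and 9631 in smDicer KO. A difference that starts near background has an uncertain size, which applies to those 7 genes. The adjusted p-values of the 9 genes lay between 0.233 and 0.357.

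The spread between mice of a genotype was wide. All 9 genes were higher on smDicer KO 2 than on smDicer KO 1, by 1.14 to 2.74 log2 units with a median of 2.45. On the WT arrays, 7 of the 9 were higher on WT 2 and 2, Ush1c and Eps8, were lower, with differences of -0.33 to 2.64. As shifts from the WT mean, the 9 genes had a median of 2.08 on smDicer KO 1, with Espn lowest at 0.36 and Pcdh24 highest at 4.14. On smDicer KO 2 the median was 4.41, with Espn lowest at 1.5 and Pcdh24 highest at 6.59. The order of the 9 shifts was the same on both smDicer KO arrays, which share the WT mean in that measure.

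Genes with a likeness to the set in their profile over the 4 arrays were ranked by the mean absolute difference from the median centred profile of the 9 genes. Mupcdh, the present Cdhr5 and partner protocadherin of Pcdh24, was the nearest gene outside the set, at 0.0720 log2 units. Spint1 at 0.106 and Ppp1r14d at 0.106, a protease inhibitor and a phosphatase inhibitor subunit, came next, followed by Heph, an iron oxidase of enterocytes, at 0.120 and Hsd17b2, a steroid dehydrogenase, at 0.123. Within the set the measure ran from 0.0111 for Myo15b to 1.17 for Espn.

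Beside the 9 genes, 22 further genes of the brush border were listed as partners (other components of the tip complex, relatives of Eps8, membrane scaffolds and apical transport), and 19 had a probe set of their own. Ezr, which encodes ezrin, shared its probe sets with another symbol, and Pls1, a plastin gene, and Baiap2l2 had no match by name, so no value is given for these. All 19 measured higher in smDicer KO, 12 at an unadjusted p under 0.05 by limma and 0 at an adjusted p under 0.05, and 16 had both smDicer KO arrays above both WT arrays. Of all 20461 genes, 9071 were higher whatever their p. Over all genes, 7.20% were higher and 10.5% lower at that unadjusted p, and 21.5% had both smDicer KO arrays above both WT arrays. The same shares stand beside the counts of the gene lists that follow. Their median difference was 1.42, within a range of 0.05 to 4.79. The unadjusted count was 11 without smDicer KO 2, 1 without WT 2 and 0 without WT 1.

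Of the tip complex, Mupcdh had 8.77 and 11.38 on the smDicer KO arrays, against 6.42 and 7.13 on the WT arrays. The genotypes were apart, at a difference of 3.29 (SE 0.91, limma adjusted p = 0.254). Anks4b, a scaffold of the same complex, had 5.16 and 8.06 in smDicer KO, against 3.35 and 4.30 in WT, which left 3 of its 4 values near background and a difference of 2.79 (SE 1.02, limma adjusted p = 0.311). Calml4, a light chain of Myo7b, differed by 1.89 (SE 0.85) and did not reach an unadjusted p of 0.05. Each measured component of the tip complex, Pcdh24, Myo7b and Ush1c included, was thus higher on both smDicer KO arrays than on both WT arrays, and Calml4 alone missed the unadjusted threshold.

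The largest differences among the partners belonged to membrane and scaffold proteins. Lgals4, a galectin of brush border membranes, had 10.15 and 12.86 in smDicer KO, against 6.32 and 7.12 in WT, a difference of 4.79 (SE 0.95, limma adjusted p = 0.230). Anxa13, an annexin of apical membrane transport, had 7.03 and 10.72 in smDicer KO, against 4.03 and 4.15 in WT, a difference of 4.78 (SE 1.24, limma adjusted p = 0.247). Anxa13 was near background on both WT arrays and Lgals4 was not, and in neither gene did the genotypes overlap. Eps8l3 and Eps8l2, relatives of Eps8, differed by 3.98 and 1.42, and the PDZ scaffolds Pdzk1 and Slc9a3r1 by 3.85 and 1.43. Further partners at the unadjusted threshold were the vesicle motor Myo5b at 1.54, Baiap2l1, which couples membrane and actin, at 1.25, Myo6, a motor towards the base of microvilli, at 0.62, and the actin nucleator Cobl at 0.48. Rab11a, Rab8a, Stx3, Stxbp2, Myo1d and Slc9a3r2, most of which are transcribed in many cell types, did not reach it.

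**Figure D2:**
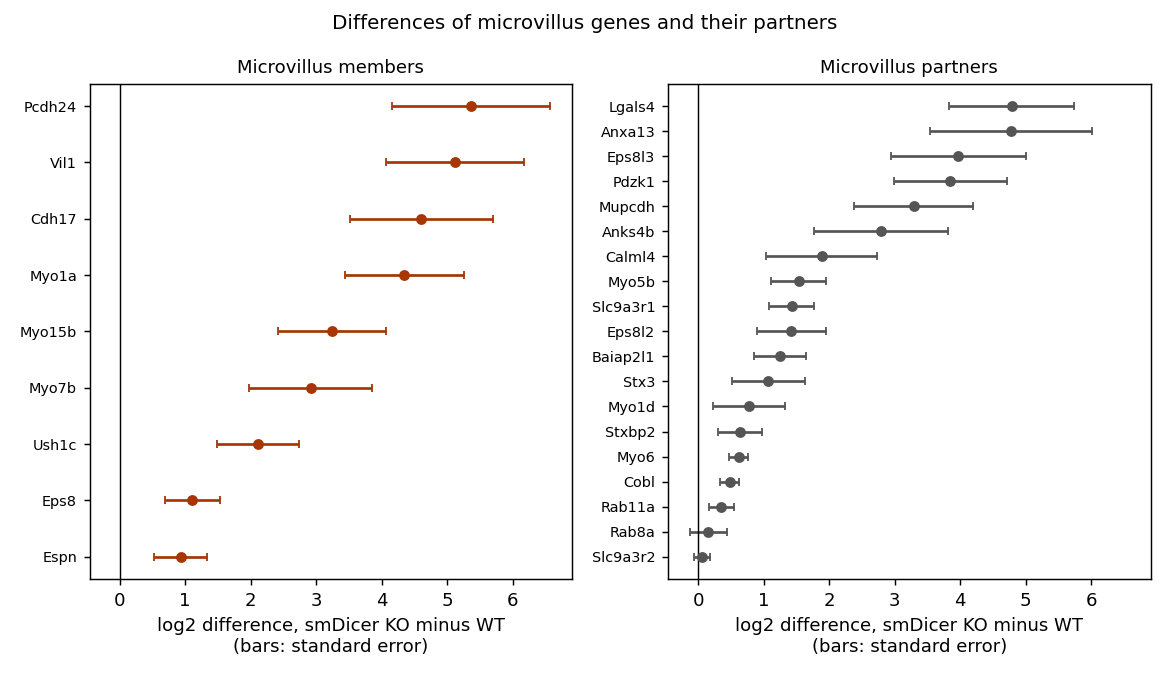
Log2 difference, smDicer KO minus WT (x axis), of the 9 microvillus genes (left) and their 19 measured partners (right), one row for each gene, with the standard error as bars. All points lie above 0, from 0.93 to 5.36 in the left panel and from 0.05 to 4.79 in the right panel.

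The 9 genes were next set against relatives that were not among the listed brush border genes. Of 11 stereocilium genes, the inner ear counterparts of the tip complex, 9 were measured, 4 were higher and 5 lower in smDicer KO, and the median difference was -0.01, against 3.24 in the microvillus set. On all 4 arrays, 7 of the 9 were under 6, so they were hardly measured in either genotype. Whrn, the whirlin scaffold, had 6.15 and 6.10 in smDicer KO, against 5.97 and 5.99 in WT. Myo7a, the relative of Myo7b, was the only gene of the 9 with an unadjusted p under 0.05, at 6.08 and 7.28 in smDicer KO, against 5.54 and 5.25 in WT, a difference of 1.29 (SE 0.43, limma adjusted p = 0.286). The difference of Myo7b was 2.92, and that between the 2 genes was not tested.

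The 7 relatives of villin had a median difference of -0.10, with 3 higher and 4 lower. Gsn and Svil, which encode gelsolin and supervillin and are common in muscle, differed by -0.39 and -0.52, whereas Vil1 itself differed by 5.12. Avil, advillin of sensory and enteric neurons, was the only relative with an unadjusted p under 0.05, with 8.36 and 8.13 in smDicer KO, against 7.64 and 7.28 in WT, and a difference of 0.79 (SE 0.18, limma adjusted p = 0.236). Scin, which encodes scinderin and was chosen after its values were seen, had the largest difference of the 7, at 6.15 and 10.10 in smDicer KO, against 4.10 and 5.11 in WT. Its difference of 3.52 (SE 1.37, limma adjusted p = 0.324) came with smDicer KO 2 far above the other 3 arrays.

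Of 6 class I myosins outside the partner list, the 2 brightest were set beside Myo1a, with its difference of 4.35. Myo1c, found in many cell types, had 11.24 and 10.81 in smDicer KO, against 11.30 and 11.12 in WT, a difference of -0.19 (SE 0.19, limma adjusted p = 0.687). Myo1e had 7.36 and 7.44 in smDicer KO, against 7.25 and 7.27 in WT, a difference of 0.14 (SE 0.12, limma adjusted p = 0.612). Neither Myo1c nor Myo1e reached an unadjusted p of 0.05. Of the 6, 2 were higher and 4 lower, 1 of the 4 at an unadjusted p under 0.05, with a median difference of -0.08. Myo1d, a class I myosin among the partners and brighter than Myo1e, had 8.13 and 9.75 in smDicer KO, against 8.14 and 8.18 in WT. Its difference was 0.78 (SE 0.55, limma adjusted p = 0.542).

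Markers of the mucosa, a layer that by the methods was stripped off before RNA was made, moved with the 9 genes. Of 13 genes of general epithelium, 13 were higher in smDicer KO, 8 with an unadjusted p under 0.05, and none was under 6 on all arrays. Their median shift from the WT mean was 1.32 on smDicer KO 1 and 3.75 on smDicer KO 2, against 0.03 and -0.03 on the WT arrays, and their summed linear level was 9350 and 33180 in smDicer KO, against 3920 and 2857 in WT. Krt8, a keratin, had 11.44 and 12.94 in smDicer KO, against 10.58 and 9.65 in WT. Krt8, Krt18 and Krt19 were bright in WT too, from 8.69 to 10.58, and made up most of the WT summed level. The cells that carry these keratins were not tested. Cdh1 and Cldn7, chosen after their values were seen, were dimmer in WT. Cdh1 had 7.74 and 10.45 in smDicer KO, against 4.71 and 5.16 in WT. Cldn7 had 9.20 and 11.78 in smDicer KO, against 4.78 and 6.32 in WT. Enterocyte function, a list of 14 transporters, hydrolases and lipid carriers, had 13 genes measured, 13 higher and 11 with an unadjusted p under 0.05, and none under 6 on all arrays. Its median shift was 3.51 on smDicer KO 1 and 6.31 on smDicer KO 2, against -1.04 and 1.04 on the WT arrays, with summed levels of 18739 and 88825 in smDicer KO, against 795 and 5034 in WT.

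Apoa1, an apolipoprotein of the enterocyte list, had 12.41 and 14.23 in smDicer KO, against 5.96 and 9.82 in WT. Goblet cell genes, 5 measured of 6 with Muc2 and Tff3 among them, had 5 higher, 3 with an unadjusted p under 0.05, a median difference of 4.03, and summed levels of 2821 and 14277 in smDicer KO, against 345 and 463 in WT. Of 5 tuft cell genes, 2 were higher and 3 lower, and 4 were under 6 on all arrays, Gfi1b, Pou2f3, Sh2d6 and Trpm5. Dclk1, which is also transcribed in neurons, was the exception, with 8.71 and 8.53 in smDicer KO, against 7.85 and 8.06 in WT. The part of these cells in the differences of the 9 microvillus genes was not tested.

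The median differences of other cell lists were smaller than that of the 9 genes, or negative. Of the 10 smooth muscle genes, 9 were lower, 3 at an unadjusted p under 0.05, with a median difference of -0.45 and summed levels of 98432 and 71410 in smDicer KO, against 107075 and 107005 in WT. Enteric neuron genes were higher for 8 of 8, 6 at an unadjusted p under 0.05, with a median of 0.83 and more on smDicer KO 1 than on smDicer KO 2 (median shifts of 1.08 and 0.45), the reverse of the order of the microvillus genes. The medians were 0.26 over 5 mesothelium genes, 0.32 over 3 genes of interstitial cells of Cajal and 0.36 over 4 measured macrophage genes. Pancreatic acinar genes, 8 measured of 12, were higher for 8 of 8, with a median difference of 1.55, and 0 of the 8 had an unadjusted p under 0.05. They split the mice more than the genotypes, with median shifts of -2.06 and 4.96 on the smDicer KO arrays and -1.68 and 1.68 on the WT arrays. The 9 microvillus genes had median shifts of 2.08 and 4.41, and of -0.35 and 0.35. In both sets the arrays numbered 2 had the higher median of each genotype. The part of these lists in the results was not tested.

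**Figure D3:**
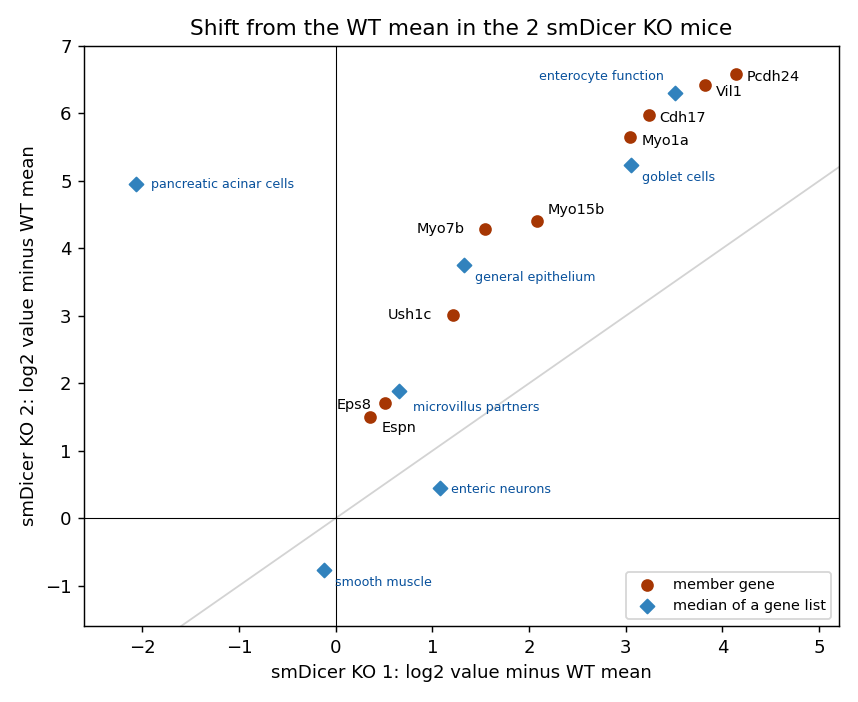
Shift from the WT mean, in log2 units, on smDicer KO 1 (x axis) and smDicer KO 2 (y axis), for the 9 microvillus genes (circles) and as medians of 7 gene lists (diamonds), with equal shifts on the grey diagonal. The 9 genes lie above the diagonal between Espn (0.36 and 1.5) and Pcdh24 (4.14 and 6.59), as the epithelial lists do, while the acinar list is at -2.06 and 4.96.

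The shifts of the 9 genes were set against the median shifts of the epithelial lists, as a description. The differences of the 13 general epithelium genes themselves ranged from 0.93 to 4.98, and a shift that starts near background, as for 7 of the 9 genes, depends on the WT level, so a gene's place relative to a list is not a measure of how far its transcript changed. Relative to the median shift of general epithelium, Pcdh24 was 2.81 higher on smDicer KO 1 and 2.84 higher on smDicer KO 2, and Vil1 was 2.49 and 2.67 higher. Cdh17 (1.91 and 2.22), Myo1a (1.72 and 1.89), Myo15b (0.75 and 0.65) and Myo7b (0.22 and 0.53) also lay above that list on both arrays. Below it on both were Ush1c (-0.11 and -0.74), Eps8 (-0.81 and -2.05) and Espn (-0.96 and -2.26). Both arrays share the WT mean in this measure.

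Against the enterocyte list, 2 genes lay above its median shift on both smDicer KO arrays, Pcdh24 by 0.63 and 0.28 and Vil1 by 0.31 and 0.11. The other 7 lay below it on both, from Cdh17 at -0.27 and -0.33 to Espn at -3.15 and -4.81. Myo1a, at -0.46 and -0.67, was close to Cdh17, and Eps8, whose WT values were above background, was at -3.0 and -4.60. These are descriptions of 2 mice, with no test.

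**Figure D4:**
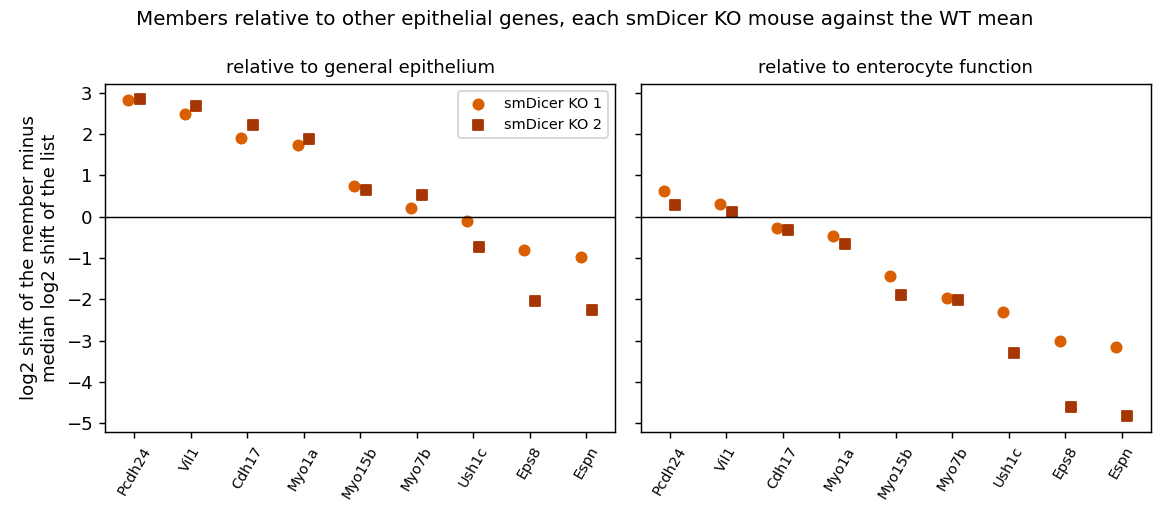
Log2 shift of each microvillus gene from its WT mean minus the median shift of general epithelium (left) or of enterocyte function (right) on y, by gene on x, with a circle for smDicer KO 1 and a square for smDicer KO 2. Pcdh24 and Vil1 lie above 0 in both panels (2.81 and 2.84, and 2.49 and 2.67, at left), and Ush1c, Eps8 and Espn below 0 in both.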

How the data were processed

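Arrays of 2 smDicer KO and 2 WT muscularis samples were analysed. The authors deposited log2 values, 1 for each probe set and array, normalized by RMA in Omicsoft Array Studio (version not given in the sources used here). RMA gives arrays of different RNA makeup 1 distribution and compresses dim probe sets. Fold changes and p-values in the same table and in a gene list are the authors' own comparison and were not used.

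The values were fitted by lmFit and eBayes of limma 3.58.1 (R 4.3.3; default settings, prior degrees of freedom 2.49) over 45101 probe sets, smDicer KO minus WT, with Benjamini-Hochberg adjustment over all of them; the code was tested on simulated data. Of the probe sets, 36804 had 1 symbol, and 2005 with several, 6228 with none and 64 controls were left out of genes. A gene was its probe set with the highest mean. Upstream sequences (250 bases) were matched by symbol or synonym, for 6 of 9 genes. The genes and lists were chosen with earlier results of these data known. Text names all 9 genes, partners with an unadjusted p under 0.05 and the 5 nearest profiles. Pls1, Ezr, Mupcdh and Anks4b were to be named whatever their values. Of the other lists, some have 1 or both of their 2 brightest genes named and some have no gene named. Other names were chosen after their values were seen. A withheld gene of one list is not reported here. Arrays give no counts, so their number limits the precision. Alternatives were a filter on dim probe sets (2 or more arrays with a log2 value of 6 or over), centring, cyclic loess, an unmoderated model, robust eBayes with a trend, a replicate block, each array left out, and the mean over the probe sets of a gene.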

Additional observations from a re-analysis of the deposited data

How the results depend on the processing

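No direction of the 9 microvillus genes reversed under any alternative, and the count at an adjusted p under 0.05 was 0 of the 9 under every one. The count of the 9 at an unadjusted p under 0.05, 8 in the limma fit, was 0 in the unmoderated linear model and from 0 to 9 when each array was left out (0 without WT 1, 4 without WT 2, 8 without smDicer KO 2, 9 without smDicer KO 1). It was 7 with trend and robust, 7 after centring, 7 with the filter, which left out Espn, 7 with the mean over probe sets and 8 after cyclic loess. Eps8 missed the threshold after centring, with the filter and with the mean over probe sets, and Myo7b with trend and robust. The median difference of the 9 genes, 3.24, ran from 2.08 without smDicer KO 2 to 4.41 without smDicer KO 1. It was 2.89 without WT 1 and 3.59 without WT 2. Under the alternatives that kept all 4 arrays, it ran from 3.20 to 3.79. For the partners, the unadjusted count of 12 was 1 in the unmoderated linear model and from 0 to 18 with arrays left out, 0 without WT 1 and 1 without WT 2, and 8 with the mean over probe sets, where the median was 0.92 instead of 1.42; with arrays left out the median ran from 0.65 to 1.89. A replicate block gave 9 of the 9 genes and 10 of the 19 partners at an unadjusted p under 0.05. The labels give the mice numbers only, so the numbers were not taken as pairs. Across probe sets, the deviations of smDicer KO 1 and WT 1 from their group means had a correlation of 0.25. That value cannot settle whether same-numbered arrays share an effect. Of the 9 genes, 9 were higher on smDicer KO 2 than on smDicer KO 1, and 7 were higher on WT 2 than on WT 1. The cause of the changes in counts and medians was not tested. Fits without an array leave a lone sample that is assumed to vary like the other group. There were 2 arrays in each group, and 7 of the 9 WT means were near background, which limits the calls and the sizes of the differences.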
